A study of Mus musculus with 12 samples.

Results

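Interferon-stimulated genes are the transcripts that cells switch on when type I, type II or type III interferon binds its receptor. The 44 genes described here were given as a list of symbols, and all 44 were found by name among the 25676 genes of the deposited table of mouse liver expression. The rule for membership uses the symbol alone and no expression value, although the list was drawn up with earlier results of these data known. Expression was measured by RNA sequencing of whole liver from 12 mice on a C57BL/6 background at 3 to 4 months of age. Of these, 6 mice (3 of each sex) were labelled Foxa3-Cre YAP1 KO (KO) and 6 (3 of each sex) were labelled wild type (WT). The comparison asked how loss of *Yap1*, which encodes a transcriptional co-activator of the Hippo pathway, from the liver epithelium altered the liver transcriptome. The *Foxa3* promoter drives Cre in the embryonic endoderm that gives rise to hepatocytes and bile duct cells, so macrophages, endothelium and stellate cells are not direct targets of the deletion. The labels do not say whether WT mice carried floxed *Yap1* alleles or Cre. Each library came from an animal with its own number in the labels.

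Type I interferon signals through IFNAR1 and IFNAR2 to a complex that holds STAT2 and IRF9 and binds the interferon-stimulated response element (ISRE) in target promoters. Interferon-γ signals through IFNGR1 and IFNGR2, and its target promoters often hold the gamma-activated site (GAS). Many target genes encode proteins that sense foreign nucleic acid, block viral translation, degrade RNA, modify proteins with ISG15 or attack the vacuoles of intracellular pathogens. In the liver, hepatocytes, Kupffer cells and endothelium can all express such genes, and a low level is present without infection.

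The promoters of the genes that the results turn on are shown first, because genes of the list moved in opposite directions while many carried the same element. RefSeq promoter windows (GRCm38.p6), from 250 bases before to 50 bases after the annotated start, were found for 34 of the 44 genes, some with more than 1 annotated start. The windows were searched on both strands for the ISRE core (GAAA, any 2 bases, GAAA) and for the GAS core TTCNNNGAA, which reads the same on both strands. The 2 patterns can overlap, as they did before *Bst2*. The ISRE core occurred in the windows of 19 of the 34 genes (55.9%), against 1079 of 27025 genes in the RefSeq table (3.99%). The GAS core occurred in 11 of the 34 (32.4%), against 9.55% of all genes. In each stretch below, the 150 bases before the start are printed 5′ to 3′ along the gene's own strand, and capitals mark the letters of a matched core.
Oas1a (chr5:120907526-120907675, minus strand): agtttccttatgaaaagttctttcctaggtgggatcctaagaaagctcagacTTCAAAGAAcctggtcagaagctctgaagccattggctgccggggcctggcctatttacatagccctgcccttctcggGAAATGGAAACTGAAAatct
Oas1g (chr5:120887614-120887763, minus strand): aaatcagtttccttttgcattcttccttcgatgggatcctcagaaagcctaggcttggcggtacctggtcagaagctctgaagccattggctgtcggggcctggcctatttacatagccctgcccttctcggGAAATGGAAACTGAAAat
Oas3 (chr5:120777660-120777809, minus strand): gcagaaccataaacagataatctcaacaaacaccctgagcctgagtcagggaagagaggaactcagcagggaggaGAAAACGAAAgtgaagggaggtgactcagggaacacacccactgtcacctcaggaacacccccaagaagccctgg
Oasl1 (chr5:114923090-114923239, plus strand): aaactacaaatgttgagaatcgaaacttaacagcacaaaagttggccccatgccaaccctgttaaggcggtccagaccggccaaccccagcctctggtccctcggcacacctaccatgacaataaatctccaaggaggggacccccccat
Igtp (chr11:58199406-58199555, plus strand): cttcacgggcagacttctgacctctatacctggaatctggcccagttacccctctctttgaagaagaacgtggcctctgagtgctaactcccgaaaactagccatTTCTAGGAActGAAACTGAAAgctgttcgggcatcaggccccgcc
Irgm2 (chr11:58214827-58214976, plus strand): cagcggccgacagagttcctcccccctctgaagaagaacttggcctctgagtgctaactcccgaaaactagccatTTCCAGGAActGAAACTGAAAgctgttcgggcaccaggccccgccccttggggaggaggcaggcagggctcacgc
Gbp7 (chr3:142530186-142530335, plus strand): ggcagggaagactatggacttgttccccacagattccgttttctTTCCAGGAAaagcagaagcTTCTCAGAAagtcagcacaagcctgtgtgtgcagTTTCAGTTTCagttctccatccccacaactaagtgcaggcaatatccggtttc
Isg15 (chr4:156200819-156200968, minus strand): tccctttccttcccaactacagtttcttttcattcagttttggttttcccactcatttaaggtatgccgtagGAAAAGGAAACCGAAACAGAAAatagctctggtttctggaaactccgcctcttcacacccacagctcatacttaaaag
Of the 6 genes that rose in KO on both scales used below and had a window, *Oas1a*, *Oas1g* and *Oas3* held the ISRE core, while *Irf7*, *Oasl1* and *Oasl2* held neither core. The windows of *Igtp* and *Gbp7*, which were lower in KO, held both cores, and that of *Ifit3b*, also lower, held the ISRE core. *Oas1a* and *Oas1g* shared 2 overlapping ISRE cores of the same letters within 20 bases of the start. *Igtp* and *Irgm2*, neighbours on chromosome 11, shared a GAS core followed 2 bases later by an ISRE core. *Oasl1*, the member with the largest log2 fold change of TPM + 1, is shown as one without a match, which says only that these letters are not in this window. *Isg15* is shown as a member with 3 overlapping ISRE cores and no change past the threshold on either scale used below. A match describes letters and does not show a binding site.

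The authors' values are in TPM, transcript abundances corrected for transcript length and scaled to a fixed total per library, so levels can be compared between genes but the sequencing depth cannot be read from them. Between 14321 and 15482 genes were above 0 in each library. *Yap1* ranged from 23.0 to 34.9 TPM in the 6 WT livers and from 0.99 to 3.11 TPM in the 6 KO livers, a log2 fold change of -3.36 (exact permutation test, two-sided p = 0.005, the smallest that 400 arrangements allow). Tests below used limma on log2(TPM + 1) with Benjamini-Hochberg adjustment over 12278 genes and a threshold of 0.05. The log2 fold changes understate the change of genes with low values. Most genes were higher in KO on this scale, with a median log2 fold change of 0.35 over all tested genes. A median-of-ratios rescaling moved that median to -0.037. Counts and the main values of the members are therefore given as deposited and after rescaling, and a value with no scale named is as deposited. By its label, WT male replicate 2 was given its library number apart from the other 11 animals, and the numbers of 1 WT female (replicate 3) and 1 KO female (replicate 1) are lower than the rest, as for animals numbered earlier. Whole liver was sampled, so fewer cells of a type and less RNA per cell cannot be told apart.

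All 44 members were measured above the filter of a mean of 0.5 TPM. They lie on 14 chromosomes, with all 7 OAS genes on chromosome 5 and all 4 IFIT genes on chromosome 19. Exons of 16 members overlap those of another gene in the GENCODE annotation, 11 of them on the opposite strand, and for these reads of the partner cannot be told apart, since use of strand in the authors' counting is not given in the sources used here. *Irf7* (overlapped by *Phrf1*), *Oasl1* (by *Gm13822*), *Gbp7* (by *Gm43802*) and *Igtp* are among the 16. Levels spread widely. *Bst2*, which encodes tetherin, had the highest mean over the 12 animals at 355 TPM and ranged from 183 to 501 TPM. *Ifi27* followed at a mean of 83.1 TPM and *Irgm1* at 41.3 TPM. Between 10 and 100 TPM stood 21 members, between 1 and 10 TPM stood 20, and only *Oas3* (0.94 TPM) and *Mx1* (0.79 TPM) had means under 1 TPM.

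Between genotypes, the list split rather than moving together. All OAS genes except *Oas1b* rose in KO livers, as did *Irf7* and *Zbp1*. The interferon-γ-responsive GTPase *Igtp* fell, and *Isg15*, *Bst2* and *Stat2* did not pass the threshold. As deposited, 17 of the 44 members rose (38.6%) and 3 fell (6.82%), against 50.1% and 4.82% of all tested genes, so the share that rose was below the background. The median log2 fold change of the members was 0.33, beside 0.35 over all tested genes. After rescaling, 8 members rose and 8 fell (18.2% each), against 20.9% and 18.7% of all tested genes, and the members' median was -0.086. These shares of all tested genes are the background for the counts of each role group below. On neither scale did the list as a whole stand apart from the rest of the transcriptome. The same 8 genes rose on both scales, namely *Irf7*, *Zbp1*, *Oas1a*, *Oas1g*, *Oas2*, *Oas3*, *Oasl1* and *Oasl2*, where *Oas3* had a WT mean below the filter. *Igtp*, *Gbp7* and *Ifit3b* fell on both. As deposited the calls of *Gbp7* and *Ifit3b* were lost with no filter and without the 2 early-numbered females (adjusted p up to 0.109 and 0.101).

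**Figure D1:**
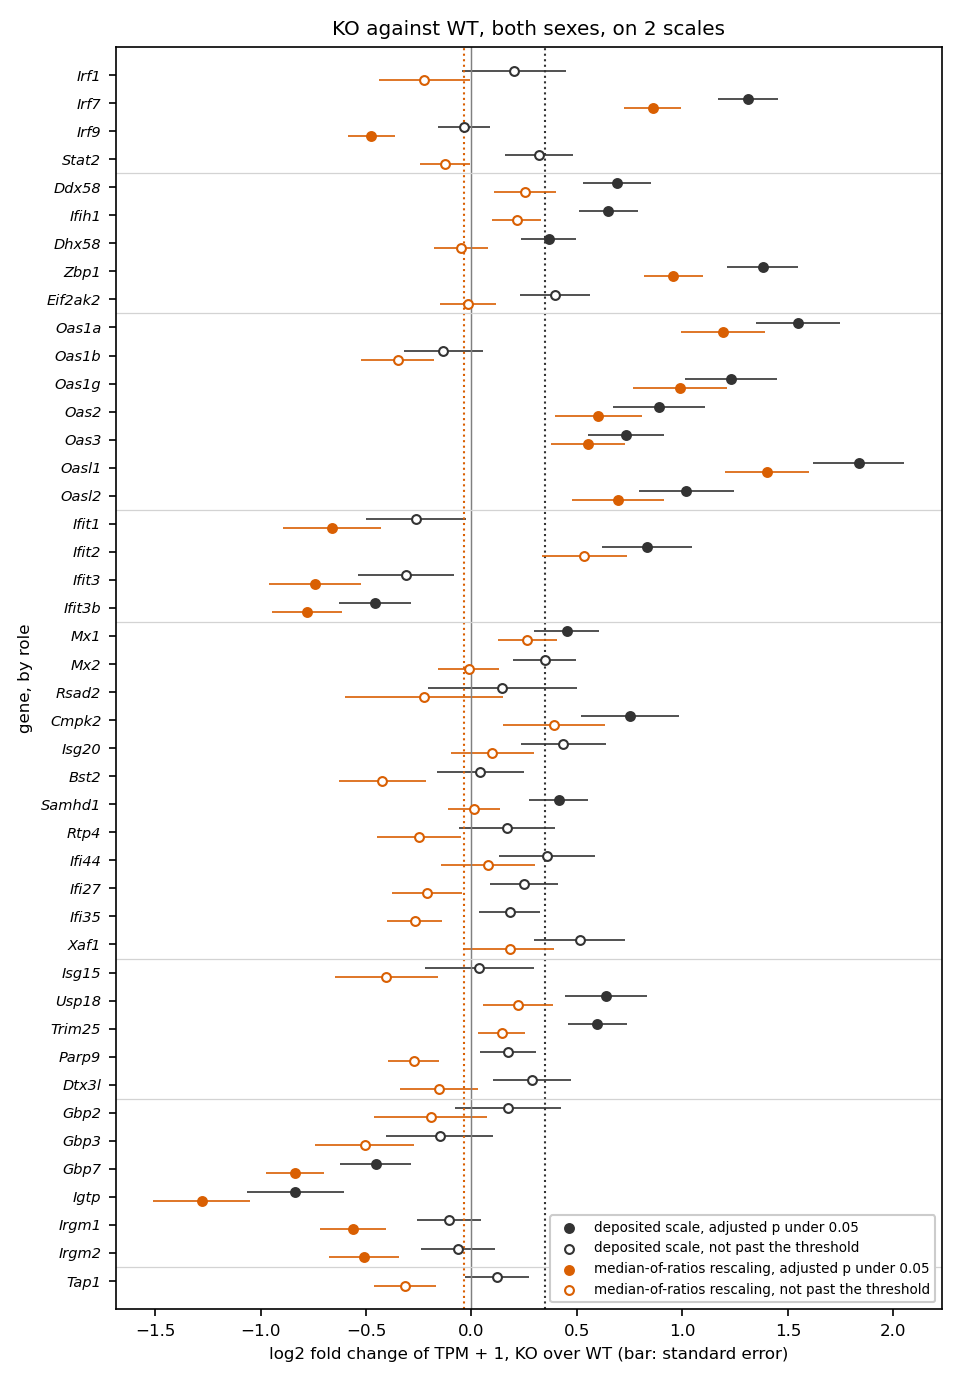
Log2 fold change of TPM + 1 in KO over WT livers (x axis) for each of the 44 genes (y axis, grouped by role), as deposited (dark) and after median-of-ratios rescaling (orange), n = 6 per genotype. Bars are standard errors, filled points have an adjusted p under 0.05, and dotted lines mark the median of all tested genes, 0.35 and -0.037. The OAS genes other than *Oas1b*, with *Irf7* and *Zbp1*, lie to the right of both medians, while *Igtp*, *Gbp7* and *Ifit3b* lie to the left of 0 on both scales.

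Separation of the animals gave a narrower set. As deposited, every KO liver exceeded every WT liver for 6 members (*Ifih1*, *Irf7*, *Oas1a*, *Oasl1*, *Trim25* and *Zbp1*), where 28.7% of all tested genes did so. For 0 members did every KO liver lie below every WT liver (1.88% of all genes). After rescaling, *Irf7*, *Oasl1* and *Zbp1* remained separate in the upward direction (10.8% of all genes), and *Irf9* was separate in the downward direction (8.19%).

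Markers of macrophages moved with genotype, while the lists for other liver cells held few genes and gave mixed calls. Among all tested genes 50.1% rose and 4.82% fell as deposited, and 20.9% rose and 18.7% fell after rescaling. These shares are the background for the marker counts that follow. All 8 macrophage and Kupffer cell markers rose as deposited and 7 rose after rescaling. Their summed level ranged from 72.1 to 235 TPM in WT and from 344 to 713 TPM in KO, with 0 of 8 at 0. *Adgre1*, which encodes F4/80, ranged from 1.99 to 6.14 TPM in WT and from 10.2 to 23.3 TPM in KO. The stellate cell markers summed to 21.1 to 43.0 TPM in WT and 51.7 to 120 TPM in KO, and 3 of 6 rose as deposited, while 2 rose and 2 fell after rescaling. The separated sums of this list therefore do not describe all of its markers. The cholangiocyte markers summed to 27.7 to 58.5 TPM in WT and 252 to 713 TPM in KO, and of the 4 tested 2 rose (*Sox9* and *Spp1*) and 1 fell (*Epcam*) on both scales. The higher cholangiocyte sum in KO was thus not shared by the whole list. The 5 plasmacytoid dendritic cell markers summed to 1.81 to 2.95 TPM in WT and 1.88 to 4.80 TPM in KO. Of these, *Siglech* was at most 0.92 TPM, and *Tcf4* carried most of the sum. Neutrophil markers summed to 0.0753 to 19.9 TPM in WT and 9.67 to 42.4 TPM in KO. As deposited 2 of 3 tested neutrophil markers and the 1 tested plasmacytoid marker rose. After rescaling 0 of either passed with limma (0 at an unadjusted p under 0.05), and the neutrophil median log2 fold change went from 1.43 to 1.05. Of 2 tested dendritic cell markers, *Itgax* rose on both scales, with a range of 0.30 to 0.80 TPM in WT and 2.60 to 3.55 TPM in KO. T and NK cell markers summed to 1.90 to 6.4 TPM in WT and 2.35 to 7.20 TPM in KO, and 0 of 5 tested passed on either scale (0 unadjusted). Of 6 sinusoidal endothelium markers 1 fell as deposited and 2 fell after rescaling, and their sums overlapped between genotypes. Of 2 tested B cell markers 1 rose as deposited and 0 passed after rescaling (0 unadjusted). The 6 hepatocyte markers summed to 87089 to 112485 TPM in WT and 63130 to 86200 TPM in KO, most of it *Alb*. As deposited *Ttr* and *Serpina1c* fell, *Fgb* rose, and *Alb*, *Apoa1* and *Tat* did not pass. After rescaling *Alb*, *Ttr* and *Serpina1c* fell and 0 rose. The part of these cell types in the results on the members was not tested.

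Among the transcription factors of the list, *Irf7* alone passed the threshold over both sexes as deposited. The gene (GRCm38 chromosome 7, 141262706 to 141266481, minus strand) encodes the interferon-inducible factor that amplifies type I interferon production. *Irf7* stood at 27.8, 22.7 and 25.1 TPM in WT females and 12.7, 14.2 and 21.2 in WT males. It stood at 59.1, 69.5 and 44.7 TPM in KO females and 43.7, 44.3 and 47.6 in KO males. Every KO value lay above every WT value, and the lowest values were those of the WT males. The log2 fold change was 1.31 (SE 0.14, adjusted p = 6.39e-06), and 0.86 after rescaling (SE 0.13, adjusted p = 0.000247). *Irf9*, the DNA-binding subunit of the type I interferon complex, had 18.2, 19.5 and 21.2 TPM in WT females and 13.2, 14.8 and 14.7 in WT males. Its KO values were 17.9, 17.6 and 12.8 TPM in females and 14.8, 17.8 and 17.2 TPM in males, overlapping the WT range. The *Irf9* log2 fold change was -0.036 as deposited (adjusted p = 0.82) and -0.47 after rescaling (adjusted p = 0.00424), so its call rests on the scale. *Stat2*, which encodes the transactivating subunit of the same complex, and *Irf1*, the interferon-γ-inducible factor, had log2 fold changes of 0.32 and 0.20 as deposited and -0.12 and -0.22 after rescaling. Neither passed the threshold over both sexes on either scale. Within males *Stat2* rose as deposited (0.61, adjusted p = 0.0302) and had 0.053 after rescaling.

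Of the 5 nucleic acid sensors, 4 rose as deposited, and *Zbp1* alone also rose after rescaling, against 50.1% and 20.9% of all tested genes. ZBP1, encoded on chromosome 2 from 173206612 to 173218923, senses Z-form nucleic acid and can start necroptosis. *Zbp1* measured 10.9, 9.85 and 9.03 TPM in WT females and 6.11, 4.48 and 5.45 in WT males. It measured 23.9, 21.9 and 15.4 TPM in KO females and 20.2, 20.6 and 22.7 in KO males. No KO liver reached down to the WT values. The log2 fold change was 1.38 (SE 0.17, adjusted p = 1.66e-05), and 0.96 after rescaling (adjusted p = 0.000148). *Ddx58*, *Ifih1* and *Dhx58* encode the RIG-I-like receptors RIG-I, MDA5 and LGP2, which bind viral double-stranded RNA in the cytoplasm. Their log2 fold changes were 0.69, 0.65 and 0.37 as deposited (adjusted p = 0.00278, 0.00151 and 0.0291) and 0.25, 0.21 and -0.049 after rescaling, none of which passed. The *Dhx58* call was also lost in 5 of the 12 fits that left out an animal. *Eif2ak2*, which encodes the RNA-activated kinase PKR, had a log2 fold change of 0.40 (adjusted p = 0.0574) as deposited and -0.016 after rescaling.

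OAS proteins make 2′-5′-linked oligoadenylate on binding double-stranded RNA, which activates RNase L, while *Oasl1* and *Oasl2* encode related proteins. On both scales 6 of the 7 genes rose, the exception being *Oas1b*. The 6 include *Oas3*, whose WT mean of 0.44 TPM lay under the filter of 0.5 TPM. It passed the filter only because the KO values raised its mean, and so adds no support. The family median log2 fold change was 1.02 as deposited and 0.70 after rescaling. *Oasl1*, whose product represses translation of *Irf7* mRNA, stood at 8.58, 11.2 and 7.31 TPM in WT females and 8.48, 9.27 and 8.43 in WT males. It stood at 33.6, 40.6 and 30.0 TPM in KO females and 29.3, 20.1 and 64.0 in KO males. The WT animals of both sexes lay close together, and the 6 KO animals lay above them with a wide spread among KO males. Its log2 fold change was 1.84 (SE 0.22, adjusted p = 1.22e-05), and 1.40 after rescaling (adjusted p = 0.000118).

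*Oas1a* had 5.30, 3.45 and 2.90 TPM in WT females and 1.69, 1.12 and 1.14 in WT males. KO females had 10.8, 16 and 6.51 TPM and KO males 6.77, 8.07 and 6.88 TPM. KO and WT values did not overlap, and WT males were lower than WT females. The log2 fold change was 1.55 (SE 0.20, adjusted p = 2.76e-05), and 1.19 after rescaling (adjusted p = 0.000404). *Oas1g*, a close copy of *Oas1a* on chromosome 5, had 2.48, 0.82 and 1.37 TPM in WT females and 0.40, 0 and 0.59 in WT males. KO females had 4.00, 5.16 and 2.13 TPM and KO males 2.36, 3.05 and 3.27 TPM, with a log2 fold change of 1.23 (SE 0.22, adjusted p = 0.000364), and 0.99 after rescaling (adjusted p = 0.00333). One WT female reached into the KO range. Reads shared by *Oas1a* and *Oas1g* could have been divided between them by the authors' counting, so the separate values are uncertain.

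*Oas2*, *Oas3* and *Oasl2*, at low TPM where the log2(TPM + 1) scale understates change, rose by log2 fold changes of 0.89, 0.73 and 1.02 (adjusted p = 0.00381, 0.00381 and 0.00198), and by 0.60, 0.55 and 0.70 after rescaling (adjusted p = 0.035, 0.0251 and 0.0219). Each had at least 1 WT female within the KO range. *Oas3*, the longest family member, reached at most 3.05 TPM in any animal. Its mean was 0.44 TPM in WT and 1.43 TPM in KO. *Oas1b*, the flavivirus resistance gene that is truncated in C57BL/6 mice, ranged from 0.35 to 2.51 TPM, with a log2 fold change of -0.13 (adjusted p = 0.563).

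**Figure D2:**
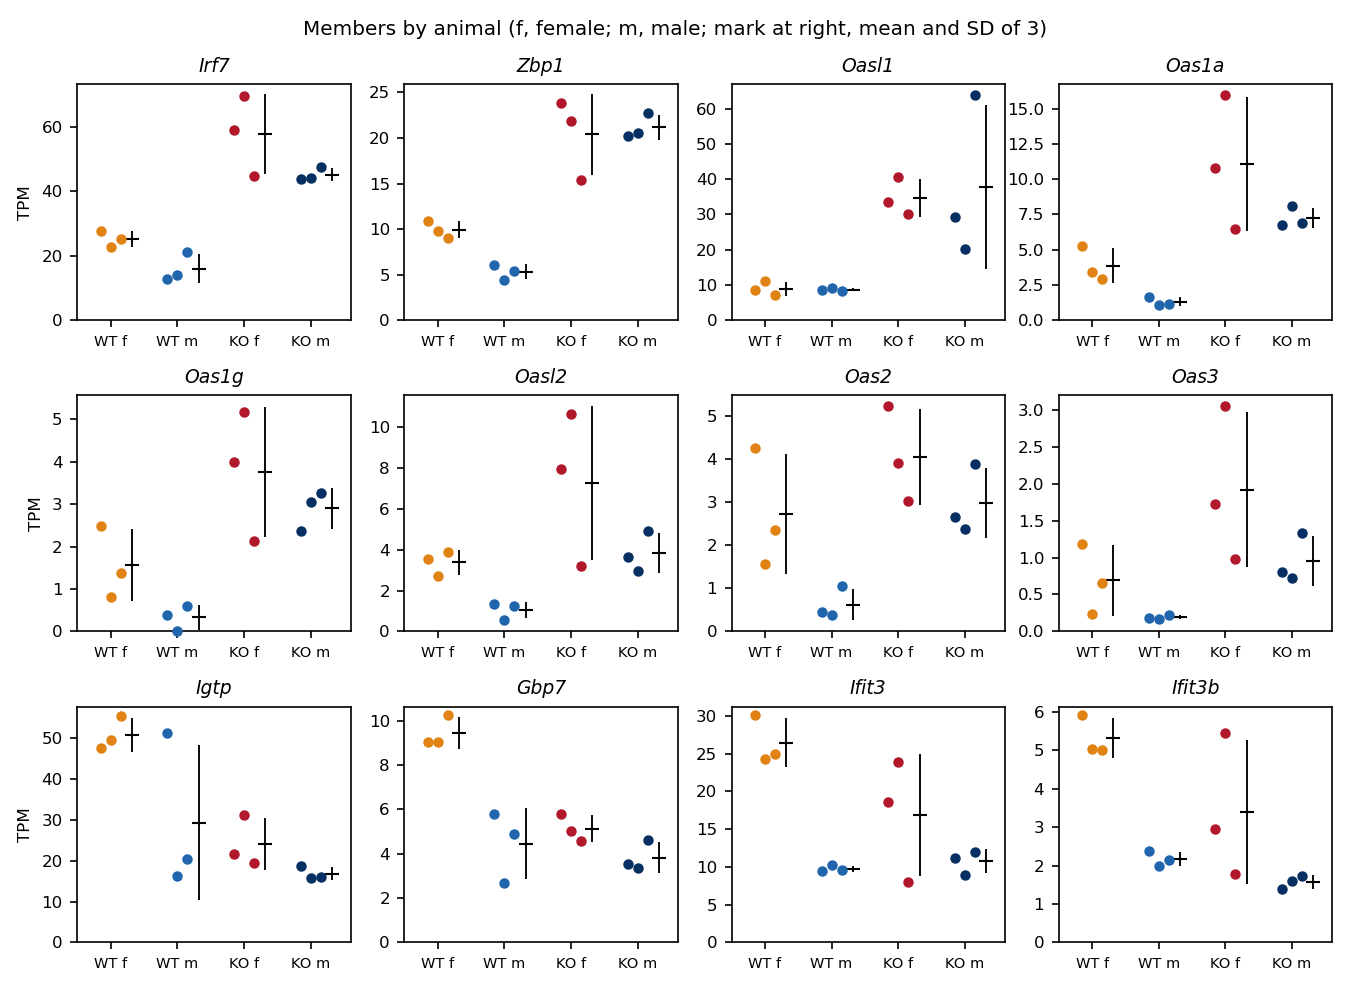
TPM (y axis) in each animal for 12 members, by genotype and sex (x axis, 3 animals per group, with the group mean and SD at the right of each group). *Irf7*, *Zbp1*, *Oasl1* and *Oas1a* are higher in all KO than in all WT animals, *Gbp7* is highest in WT females, *Igtp* is highest in WT females and 1 WT male, and *Ifit3* and *Ifit3b* are higher in WT females than in WT males.

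The IFIT family did not follow the OAS family. IFIT proteins bind viral RNA lacking host cap modifications and block its translation. *Ifit2* rose as deposited (log2 fold change 0.83, SE 0.21, adjusted p = 0.00483), and its rescaled value of 0.53 had an adjusted p of 0.0505. *Ifit1*, *Ifit3* and *Ifit3b*, on the same stretch of chromosome 19, had negative log2 fold changes of -0.26, -0.31 and -0.46 as deposited, of which *Ifit3b* passed the threshold (adjusted p = 0.0364). After rescaling the 3 values were -0.66, -0.74 and -0.78 (adjusted p = 0.0369, 0.0168 and 0.0023), all past it. *Ifit3* measured 30.1, 24.2 and 24.9 TPM in WT females and 9.46, 10.2 and 9.65 in WT males. It measured 18.6, 23.9 and 8 TPM in KO females and 11.2, 8.96 and 12 in KO males. WT females stood above all other animals, while the other 3 groups overlapped. *Ifit3b* had 5.92, 5.05 and 5.01 TPM in WT females, whereas WT males had 2.37, 2 and 2.14 TPM. It had 2.96, 5.45 and 1.78 TPM in KO females and 1.38, 1.61 and 1.72 in KO males. Its call as deposited was lost in 7 of the 12 fits that left out an animal (adjusted p up to 0.0785). *Ifit3* and *Ifit3b* are near-identical, so a share of their reads may have been assigned to either.

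Of the 12 other antiviral effectors, *Cmpk2*, *Mx1* and *Samhd1* rose as deposited and did not pass after rescaling. *Cmpk2*, a mitochondrial nucleotide kinase next to *Rsad2* on chromosome 12, had a log2 fold change of 0.75 (adjusted p = 0.0144) and 0.39 after rescaling (adjusted p = 0.22). *Mx1* and *Samhd1* had values of 0.45 and 0.41 (adjusted p = 0.0231 and 0.0221), and 0.26 and 0.010 after rescaling (adjusted p = 0.153 and 0.958). The *Mx1* call was also lost in 3 of the 12 fits that left out an animal (adjusted p up to 0.0571) and the *Samhd1* call in 1 (without KO male replicate 1, adjusted p = 0.0525), and both were lost without the 2 early-numbered females. *Mx1*, which encodes an antiviral dynamin-like GTPase, carries a disrupting deletion in C57BL/6 mice and stayed between 0.24 and 1.98 TPM. *Samhd1* encodes the enzyme that depletes cellular nucleotides. *Rsad2*, which encodes viperin, ranged from 1.78 to 11.1 TPM with no order by genotype or sex, and its standard error of 0.35 was the largest of the 44. The remaining 8 (*Mx2*, *Isg20*, *Bst2*, *Rtp4*, *Ifi44*, *Ifi27*, *Ifi35* and *Xaf1*) had log2 fold changes from 0.041 for *Bst2* to 0.51 for *Xaf1*, with adjusted p-values from 0.0602 to 0.876.

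In the ISG15 and ubiquitin group, *Usp18* and *Trim25* rose as deposited and neither passed after rescaling. ISG15 is a ubiquitin-like protein that is conjugated to other proteins, and USP18 removes it and dampens signalling from the type I receptor. *Isg15* itself had 35, 24.1 and 27.0 TPM in WT females and 26.3, 7.65 and 15.8 in WT males. Its KO values were 31.9, 22.1 and 16.7 TPM in females and 21.3, 22.9 and 15.3 TPM in males, within the WT range. The log2 fold change was 0.036 (SE 0.26, adjusted p = 0.913), and -0.40 after rescaling (adjusted p = 0.211). *Usp18* had a log2 fold change of 0.64 (adjusted p = 0.0134) and 0.22 after rescaling (adjusted p = 0.318). *Trim25*, the ubiquitin ligase that activates RIG-I, had 0.60 (adjusted p = 0.00295) and 0.14 (adjusted p = 0.341). *Parp9* and *Dtx3l*, partners in a complex and genes with overlapping exons on opposite strands of chromosome 16, had 0.17 and 0.29 and did not pass on either scale.

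Among the GTPases, *Igtp* and *Gbp7* fell and none rose. This group holds the guanylate-binding proteins and the immunity-related GTPases, which are induced mainly by interferon-γ and attack vacuoles that contain pathogens. As deposited, 2 of the 6 genes fell, and after rescaling 4 fell, against 4.82% and 18.7% of all tested genes. Within males 0 of the 6 fell as deposited and 3 fell after rescaling, against 2.81% and 10.2% of all tested genes. Within females 3 fell on each scale, against 4.68% and 10.9%. *Igtp*, also called Irgm3 and encoded on chromosome 11 from 58199556 to 58207591, had 47.5, 49.5 and 55.5 TPM in WT females and 51.3, 16.3 and 20.6 in WT males. KO females had 21.6, 31.2 and 19.4 TPM and KO males 18.8, 15.8 and 16 TPM. The WT females and WT male replicate 1 stood above all KO livers, while the other WT males lay within the KO range. The log2 fold change was -0.83 (SE 0.23, adjusted p = 0.00779), and -1.28 after rescaling (adjusted p = 0.000662). No fit that left out an animal lost this call.

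*Gbp7* had 9.02, 9.02 and 10.3 TPM in WT females and 5.78, 2.68 and 4.91 in WT males. Its KO values were 5.78, 5.03 and 4.59 TPM in females and 3.52, 3.34 and 4.62 TPM in males. WT females were again the high group, and the other 3 overlapped. The log2 fold change was -0.45 (SE 0.17, adjusted p = 0.0351), a call lost in 9 of the 12 fits that left out an animal (adjusted p up to 0.081), and -0.84 after rescaling (adjusted p = 0.000379). *Irgm1* and *Irgm2* had -0.11 and -0.064 as deposited and -0.56 and -0.51 after rescaling (adjusted p = 0.0117 and 0.0277). *Gbp2* and *Gbp3* had 0.17 and -0.15 as deposited and did not pass on either scale. *Igtp* and *Irgm2* have overlapping exons on one strand, so their reads may have been assigned to either. *Tap1*, which carries peptides into the endoplasmic reticulum for presentation, had a log2 fold change of 0.12 (adjusted p = 0.521), and -0.32 after rescaling (adjusted p = 0.104).

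The authors' deposited table gives its own comparison of KO with WT, with an FDR p-value printed to 2 decimals. In the authors' deposited table, 10 of the 44 members are higher at an FDR p under 0.05 (22.7%) and 3 are lower (6.82%), against 14.9% and 9.27% of the 17332 genes with a value. That background also holds genes below the filter of 0.5 TPM, which all 44 members passed. It is therefore unlike the background of 12278 tested genes used above, and the shares cannot be set beside each other. The 3 lower genes in the authors' deposited table are *Igtp*, *Irgm1* and *Gbp7*, with log2 fold changes of -1.33, -0.68 and -0.71. Its higher genes include the 6 OAS genes above, from 1.45 for *Oasl1* to 2.56 for *Oas1g*, together with *Irf7* (1.14) and *Zbp1* (1.21). *Oasl1* thus has the smallest rise of these 6 genes there and the largest on the log2(TPM + 1) scale.

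Within males, 17 members rose and 0 fell as deposited with limma (0 lower at an unadjusted p under 0.05), against 43.3% and 2.81% of all tested genes. The share that rose, 38.6%, was again below the background. *Stat2*, *Mx2* and *Xaf1* were among the 17 and did not pass over both sexes. After rescaling 6 rose (*Irf7*, *Zbp1*, *Oas1a*, *Oas1g*, *Oas2* and *Oasl1*) and 3 fell (*Gbp7*, *Igtp* and *Irgm1*), against 13.9% and 10.2%. Within females, 7 members rose (15.9%) and 3 fell (*Gbp3*, *Gbp7* and *Igtp*), against 29.1% and 4.68% of all tested genes. This count of 10 ranged from 5 to 12 with 1 animal left out, and was 4 without the 2 early-numbered females, and 6 when rescaled without the 20 most abundant genes or with no filter. After rescaling, 4 rose in females (*Irf7*, *Zbp1*, *Oas1a* and *Oasl1*) and 6 fell (*Gbp3*, *Gbp7*, *Ifit3*, *Ifit3b*, *Igtp* and *Irf9*), against 15.2% and 10.9%. The male and female comparisons use separate animals. *Zbp1* had log2 fold changes of 1.81 in males and 0.95 in females, *Gbp3* had 0.46 and -0.76, and *Oasl1* had 1.83 and 1.84.

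The test of the difference itself, the interaction of genotype and sex, found 0 members past the threshold with limma (3 at an unadjusted p under 0.05), where 0.912% of all tested genes passed. After rescaling it again found 0 (2 unadjusted), beside 0.839%. The median interaction was 0.40 over the members and 0.17 over all tested genes, and after rescaling it was 0.21 and -0.015. The most positive values were those of *Gbp3* (1.23, adjusted p = 0.31) and *Zbp1* (0.86, adjusted p = 0.221). A different response in the sexes was therefore not shown for any single member.

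The baseline sex difference was visible in WT livers. WT males had lower values than WT females for 41 of the 44 members and higher values for 3 (6.82%), where 28.9% of all tested genes were higher in males, and 10 members passed the threshold, all lower in males (22.7%), against 4.6% of all tested genes. The 10 were *Gbp3*, *Gbp7*, *Ifi44*, *Ifit3*, *Ifit3b*, *Irf1*, *Oas1a*, *Oas2*, *Rtp4* and *Zbp1*. The median difference, male minus female, was -0.52 over the members and -0.19 over all tested genes. After rescaling, *Gbp3*, *Gbp7*, *Ifit3*, *Oas2* and *Zbp1* still passed (11.4%, against 2.26% of all tested genes), and the medians were -0.38 and -0.013. On that scale 37 members were lower and 7 higher in WT males, where 48.3% of all tested genes were higher. The summed macrophage and Kupffer cell markers were at 113 to 235 TPM in WT females and 72.1 to 76.1 in WT males, and their part in this difference was not tested. The count of 10 depended on single animals. It was 1 without WT male replicate 2, 1 without WT female replicate 1 and 16 without WT male replicate 3. With a term for the 2 early-numbered females it was 2, *Gbp3* and *Ifit3*. Of the 10 genes, *Gbp3* alone kept its call in every fit that left out an animal. Male values lay wholly below female values for 29 of the 44 members as deposited (27.5% of all genes) and for 16 after rescaling (14.4%).

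*Gbp3* showed the largest difference on the log2(TPM + 1) scale, with 8.52, 8.75 and 10.4 TPM in WT females and 3.68, 1.32 and 1.87 in WT males (log2 difference -1.70, SE 0.28, adjusted p = 0.00311). In KO, *Gbp3* stood at 5.17, 6.45 and 3.72 TPM in females and 3.26, 2.28 and 4.84 TPM in males, which overlapped. *Irf1* had 18.5, 17.6 and 16.3 TPM in WT females and 7.48, 5.02 and 9.19 in WT males (log2 difference -1.20, adjusted p = 0.0449, and 0.0654 after rescaling). In KO it had 25.0, 8.36 and 15 TPM in females and 9.28, 15.2 and 10.6 TPM in males, so the KO sexes overlapped as well.

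*Ifi44* had 3.83, 2.88 and 2.47 TPM in WT females and 1.25, 0.53 and 0.84 in WT males (limma, adjusted p = 0.0445, and 0.064 after rescaling). *Rtp4*, which encodes a receptor-transporting protein, had 17.9, 12.1 and 15 TPM in WT females and 7.49, 4.17 and 8.87 in WT males (adjusted p = 0.0465, and 0.0756 after rescaling). *Oas2* had 4.26, 1.57 and 2.36 TPM against 0.45, 0.38 and 1.05 TPM (adjusted p = 0.0282, and 0.0308 after rescaling). The calls of *Irf1*, *Ifi44*, *Rtp4* and *Oas2* were each lost with the term for the early-numbered females. In KO livers, *Ifi44* stood at 3.74, 4.67 and 1.32 TPM in females and 2.74, 1.77 and 1.85 TPM in males. *Rtp4* stood at 17.8, 13.1 and 7.69 TPM in KO females and 9.83, 10.8 and 10.8 in KO males. *Oas2* stood at 5.23, 3.90 and 3.02 TPM in KO females and 2.65, 2.38 and 3.90 in KO males.

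For *Gbp3*, *Irf1*, *Ifi44*, *Rtp4* and *Oas2* the KO sexes overlapped where the WT sexes did not. *Ifit3b*, also called by sex in WT, did not overlap between the sexes in either genotype as deposited. Across KO livers, 0 members passed the sex comparison with limma (2 at an unadjusted p under 0.05), against 0.0814% of all tested genes. The median difference in KO was -0.25 over the members and 0 over all tested genes to 2 decimals, and 34 of 44 members were negative. After rescaling 0 members again passed (2 unadjusted), and the members' median was -0.24. KO females lay wholly above KO males for *Ifi27*, *Ifit3b* and *Igtp*, where 5.09% of all genes did so. A p above the threshold does not show that the KO sexes were equal. The sex differences in WT and KO were not shown to differ, since no member passed the interaction test.

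**Figure D3:**
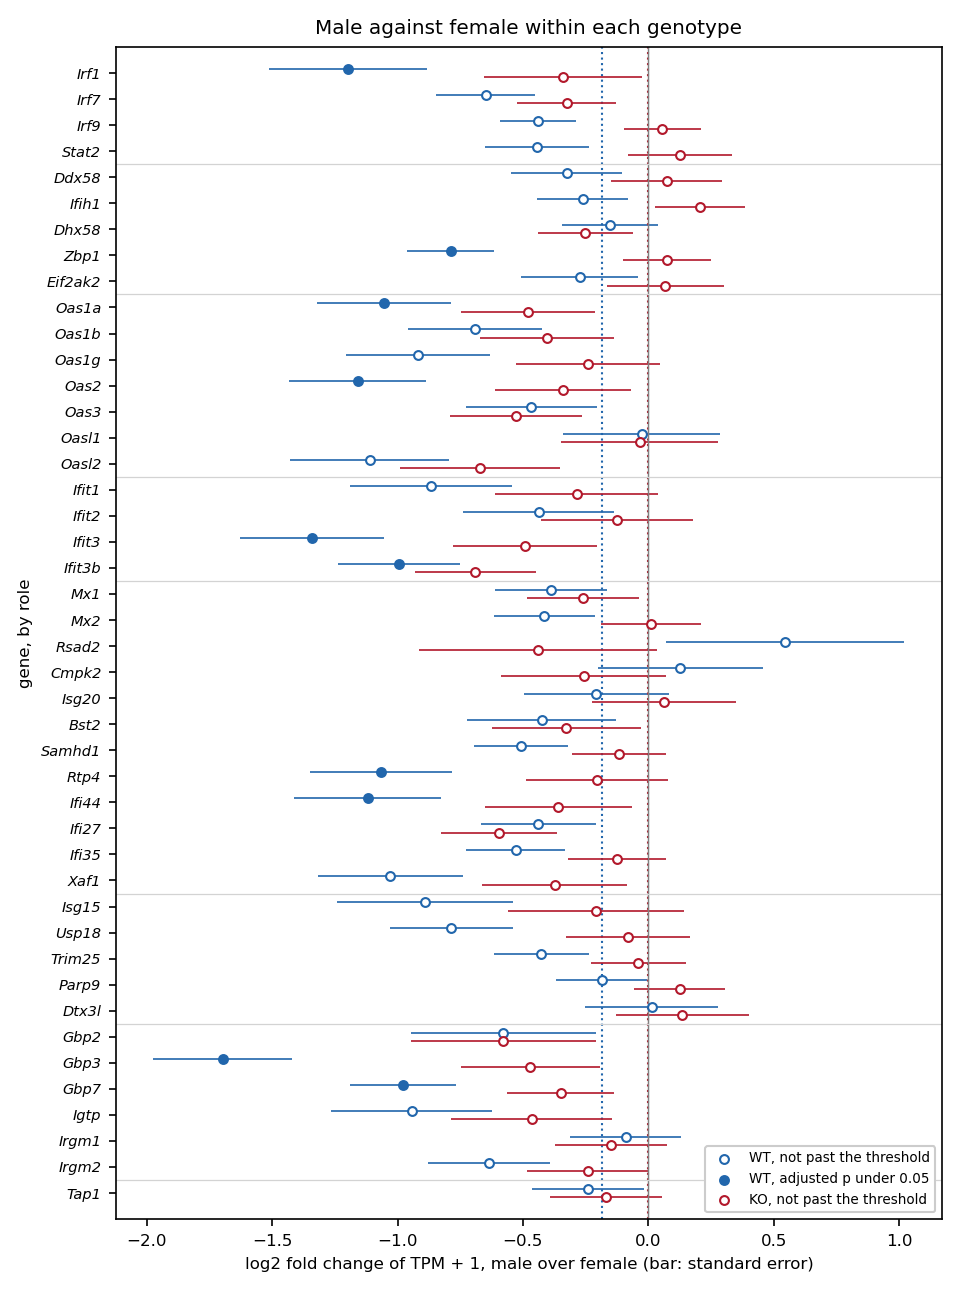
Log2 difference of TPM + 1, male over female (x axis), for each of the 44 genes (y axis) in WT livers (blue) and KO livers (red), n = 3 per group. Bars are standard errors, filled points have an adjusted p under 0.05, and dotted lines mark the medians of all tested genes. In WT, 41 genes lie to the left of 0 and 10 are filled, while in KO none is filled.

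Animals of one group differed across the whole list. Each animal's mean over the 44 genes of log2(TPM + 1), centred on the gene's mean, was 0.18, 0.00 and 0.15 in WT females and -0.32, -0.68 and -0.47 in WT males. It was 0.45, 0.53 and -0.07 in KO females and 0.00, -0.02 and 0.24 in KO males. After rescaling the means were 0.30, 0.09 and 0.28 in WT females, -0.08, -0.31 and -0.26 in WT males, 0.16, 0.40 and -0.23 in KO females and -0.07, -0.17 and -0.10 in KO males, so WT females then had the highest group mean. KO female replicate 3 was the lowest of its group for 39 of the 44 members, and for 37 after rescaling. KO female replicate 2 was the highest of its group for 26 members, and for 31 after rescaling. WT males were the group with the lowest mean on both scales, with WT male replicate 2 lowest of the 3 for 26 members and for 18 after rescaling. Over all tested genes the same mean was -0.40 in WT male replicate 2 and -0.25 in each of the other WT males, and after rescaling it was -0.02 and -0.01 to -0.04.

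The role groups did not share one order of animals. For the OAS family the 6 KO animals ranged from 0.15 to 1.00 and the 6 WT animals from -1.04 to 0.09, with no overlap as deposited. After rescaling KO female replicate 3 (0.11), KO male replicate 1 (0.14) and KO male replicate 2 (0.05) lay below WT female replicate 1 (0.21). For the IFIT family WT females had 0.68, 0.35 and 0.40 and WT males -0.45, -0.43 and -0.42, while KO animals spread from -0.58 to 0.86. For the GTPases WT female replicate 3 was highest at 0.81 and WT male replicate 2 lowest at -0.64. KO female replicate 2, the highest KO animal, reached 0.35. After rescaling the lowest animal was KO male replicate 2 at -0.66, and WT male replicate 2 (-0.24) lay above 4 of the 6 KO animals.

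**Figure D4:**
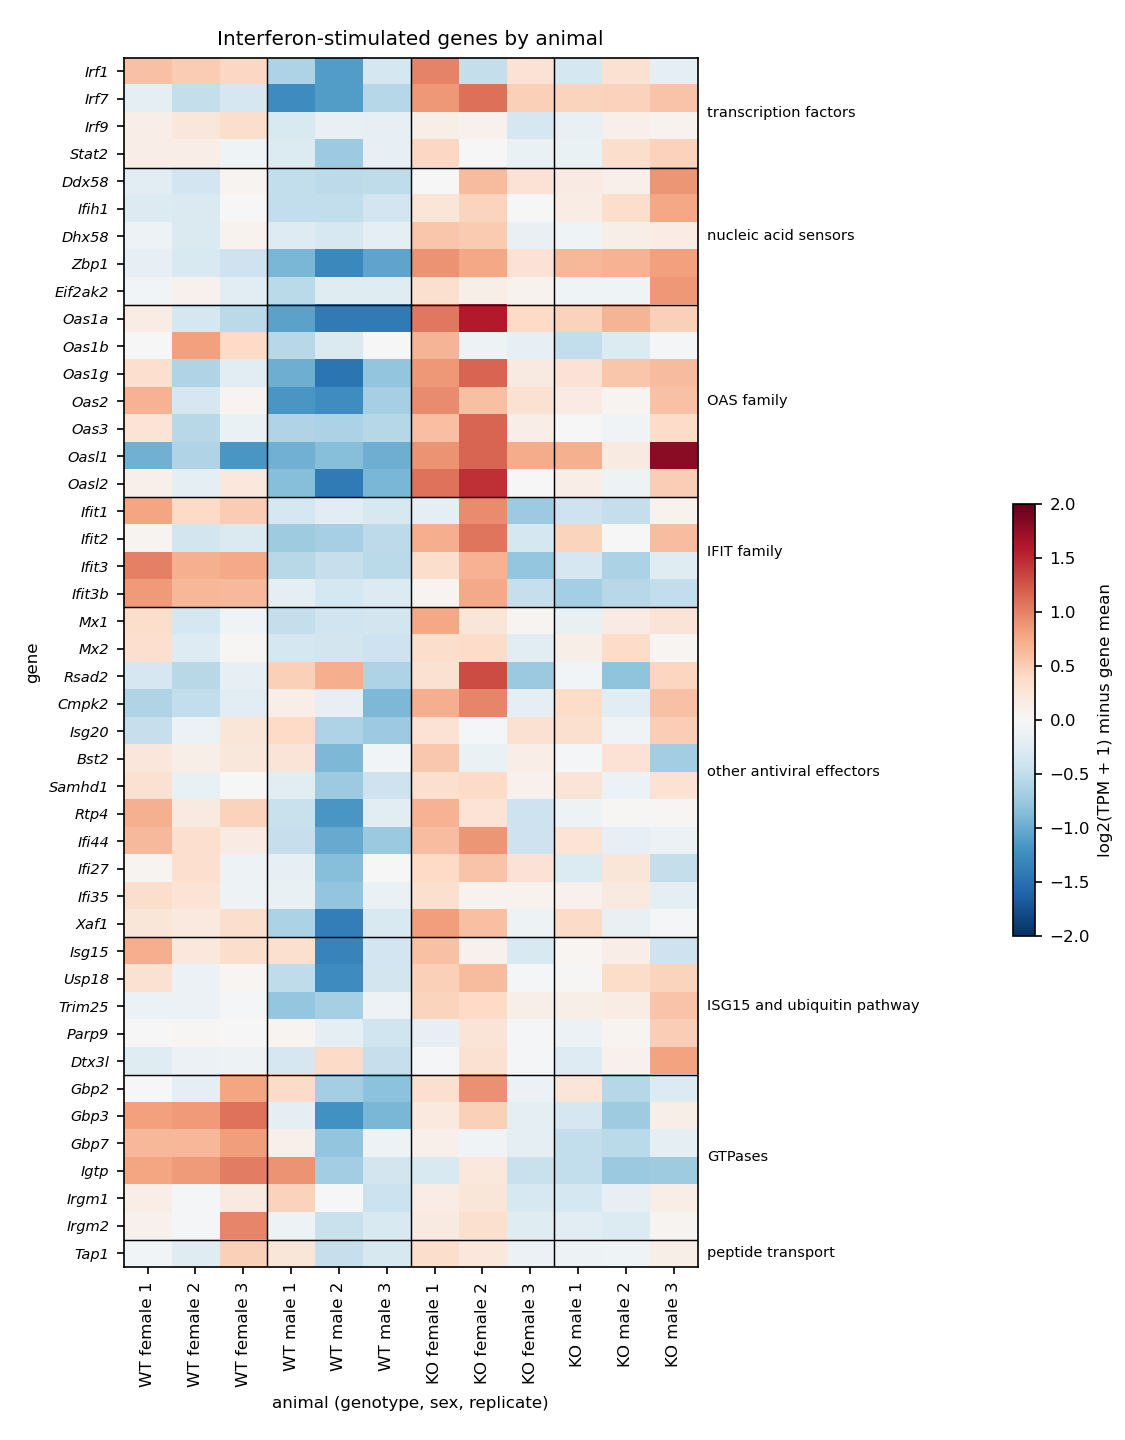
Each cell is log2(TPM + 1) minus the gene's mean over the 12 animals (colour scale from -2 to 2), with genes in rows by role and animals in columns by genotype, sex and replicate. Most OAS rows are blue in WT males and red in KO, the rows of *Ifit1*, *Ifit3*, *Ifit3b*, *Gbp3*, *Gbp7* and *Igtp* are red in WT females, and KO female replicate 3 is the lowest of its group for 39 genes.

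The other genes of the interferon pathway were read from lists of known ligands, receptors, signalling factors, sensors, negative regulators and further inducible genes. None of the 13 interferon ligand genes reached the filter. *Ifnb1* and 8 others were listed at 0 in every library, and the sum over all 13 was at most 0.87 TPM in WT and 1.14 TPM in KO. *Ifng*, which encodes interferon-γ, was at most 0.18 TPM.

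All 9 receptor and kinase genes rose as deposited and 5 did so after rescaling, against 50.1% and 20.9% of all tested genes. The 5 were *Ifngr1*, *Ifngr2*, *Il10rb*, *Ifnlr1* and *Tyk2*. *Ifngr1*, the ligand-binding chain of the interferon-γ receptor, had 15.9, 11.5 and 13.5 TPM in WT females and 11, 7.45 and 8.95 in WT males. It had 41.7, 34.5 and 39.9 TPM in KO females and 37.1, 31.4 and 38.9 in KO males. Every KO liver lay far above every WT liver (log2 fold change 1.66, SE 0.13, adjusted p = 3.33e-07, and 1.22 after rescaling, adjusted p = 2.13e-06). *Ifnlr1*, the specific chain of the type III receptor, was at most 0.046 TPM in WT and between 1.31 and 2.08 TPM in KO (log2 fold change 1.43, and 1.28 after rescaling). It passed the filter on mean TPM through the KO animals alone, so its place among the genes that rose follows in part from the filter. *Il10rb*, its shared partner chain, ranged from 1.95 to 5.36 TPM in WT and from 9.09 to 19.1 TPM in KO (log2 fold change 1.45, adjusted p = 5.15e-06, and 1.06 after rescaling). *Ifnar1* and *Ifnar2* had log2 fold changes of 0.55 and 0.38, and 0.11 and -0.069 after rescaling, where neither passed.

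Of the 5 signalling factors tested, 2 rose as deposited, and after rescaling 1 rose and 3 fell (*Irf2*, *Irf3* and *Irf5*), against 50.1%, 20.9% and 18.7% of all tested genes. *Irf8*, a factor of the myeloid lineage, ranged from 1.47 to 3.81 TPM in WT and from 6.95 to 10.8 TPM in KO (log2 fold change 1.36, adjusted p = 2.38e-06, and 0.98 after rescaling). *Nmi* rose as deposited (0.48, adjusted p = 0.0171) and had 0.043 after rescaling.

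Among 9 tested genes that act upstream of interferon, 8 rose as deposited and 5 after rescaling, and 1 (*Mavs*) fell after rescaling, against the same shares. The endosomal RNA sensor *Tlr7* ranged from 0.25 to 0.51 TPM in WT and from 1.68 to 2.5 TPM in KO (log2 fold change 1.21, and 0.98 after rescaling), and it too passed the filter through the KO animals alone. *Tmem173*, which encodes STING, had 1.15 (adjusted p = 4.95e-05, and 0.87 after rescaling) and *Ikbke*, an activating kinase of IRF factors, had 1.13 (adjusted p = 1.22e-05, and 0.69 after rescaling). Of 7 tested negative regulators, 6 rose as deposited and 3 after rescaling, against 50.1% and 20.9%. *Socs3*, an inhibitor of cytokine receptors that is best known as a target of STAT3, ranged from 2.95 to 16.3 TPM in WT and from 24.6 to 113 TPM in KO (log2 fold change 2.68, adjusted p = 2.93e-05, and 2.25 after rescaling). *Ptpn6* and *Irf2bp1* had 0.89 and 0.91, and 0.46 and 0.47 after rescaling.

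**Figure D5:**
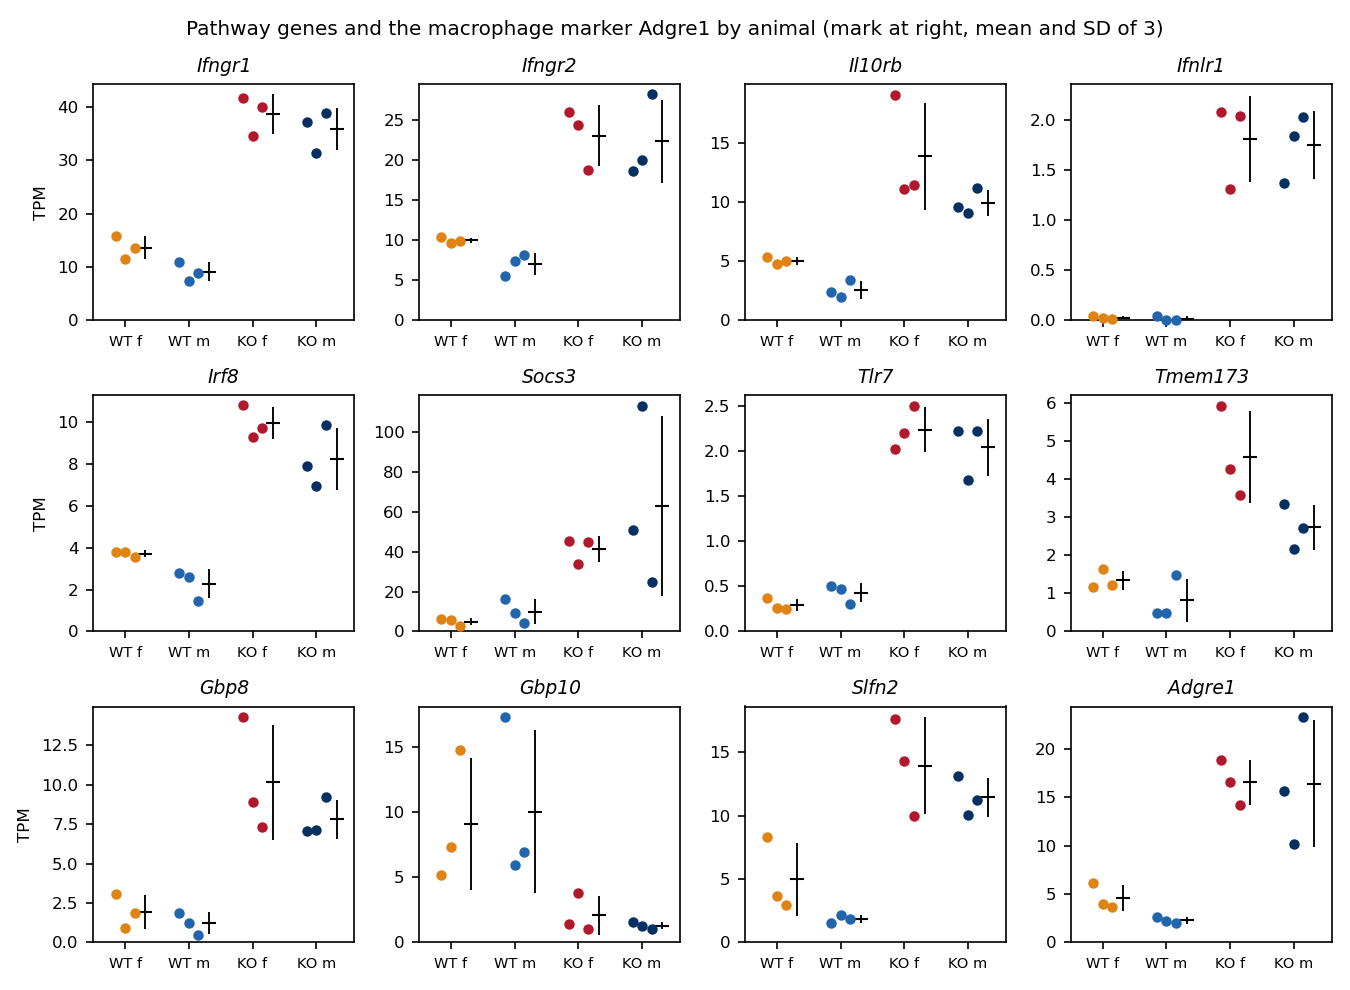
TPM (y axis) in each animal for 11 genes of the interferon pathway and for the macrophage marker *Adgre1*, by genotype and sex (x axis, 3 animals per group, with the group mean and SD at the right of each group). The receptor chains, *Irf8*, *Tlr7*, *Tmem173*, *Gbp8*, *Slfn2* and *Adgre1* do not overlap between KO and WT, and *Gbp10* is lower in KO.

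Of 43 other interferon-inducible genes tested, 21 rose and 2 fell as deposited, and 9 rose and 6 fell after rescaling, beside 50.1%, 4.82%, 20.9% and 18.7% of all tested genes. Of the 7 tested guanylate-binding proteins outside the 44, *Gbp8* and *Gbp9* rose and *Gbp10* fell on both scales, and *Gbp4* fell after rescaling alone. *Gbp8* ranged from 0.50 to 3.08 TPM in WT and from 7.05 to 14.3 TPM in KO (log2 fold change 1.99, adjusted p = 6.08e-06, and 1.65 after rescaling). *Gbp10* ranged from 5.20 to 17.3 TPM in WT and from 1.01 to 3.79 TPM in KO (log2 fold change -1.92, adjusted p = 0.000119, and -2.26 after rescaling). *Slfn2*, a regulator of immune cell quiescence, had a log2 fold change of 1.76 (adjusted p = 2.12e-05, and 1.38 after rescaling). Of 10 genes of antigen presentation, 5 rose as deposited, and *Tapbp*, which encodes tapasin (0.95, and 0.49 after rescaling), and *Ciita*, the regulator of MHC class II genes (0.76, and 0.61), which passed the filter through the KO animals alone, also rose after rescaling, while *Psmb9* (-0.67) and *B2m* (-0.50) fell after rescaling.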

How the data were processed

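RNA was extracted from whole liver of 12 mice and sequenced on 1 lane, per the labels' protocols. The table holds values in TPM (transcripts scaled to a fixed total per library) for 25676 genes, computed by the authors in 1 column per library. For 17332 genes it also holds the authors' own KO against WT comparison, which per the file headers is a signed fold change (a score), its log2 value and an FDR p-value. The submitters' processing notes name edgeR and the GRCm38 build, with no role. The aligner, counter and annotation are not given in the sources used here. TPM keep no depth, so no counting interval can be given.

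Genes with a mean of at least 0.5 TPM (12278) were tested on log2(TPM + 1) with limma 3.58.1 (R 4.3.3; eBayes with an intensity trend; Benjamini-Hochberg adjustment over all tested genes; threshold 0.05). Genotype was fitted beside a term for sex. The comparisons within sex and within genotype, and the interaction (male minus female genotype effect), came from a model of the 4 group means. As deposited means the authors' TPM. Rescaled means TPM divided by median-of-ratios factors over the 12819 genes above 0 in all libraries. The fitting code was checked on simulated data. Positions are from GENCODE M21 (25635 genes matched by ID) and promoter windows from RefSeq. Tables were handled with Python 3.11.15, pandas 2.3.3 and numpy 2.4.6.

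All 44 members are named by role, and pathway genes from lists by the largest changes. A gene of the signalling list is not reported here. The members, role groups and lists were chosen with earlier results of these data known. Alternatives covered scaling, pseudocount, filter, each animal left out, the early-numbered animals as a covariate or left out, and each sex alone. Replicate numbers were given in accession order. Whether animals shared litters is not stated.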

Additional observations from a re-analysis of the deposited data

Results flagged for a closer look

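*Irf9*, the DNA-binding subunit of the type I interferon complex, had genotype differences of opposite sign in the sexes as deposited, neither of which passed the threshold. All 3 KO males (14.8 to 17.8 TPM) lay above all 3 WT males (13.2 to 14.8 TPM), while all 3 KO females (12.8 to 17.9 TPM) lay below all 3 WT females (18.2 to 21.2 TPM). The log2 fold changes were 0.21 in males and -0.28 in females. The interaction was 0.4956 (SE 0.22) with a limma adjusted p of 0.53, which did not pass. After rescaling, the *Irf9* values were negative in both sexes, at -0.33 in males and -0.62 in females, and the interaction was 0.28 (adjusted p = 0.859).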

How the results depend on the processing

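No paired analysis was possible because the labels carry no replicate numbers, and those used here follow accession order. Beside the 20 members called for genotype, every alternative for that count stayed within 1.5 times of it, but rescaling moved its split from 17 higher and 3 lower to 8 and 8. Under median-of-ratios rescaling the members' median became -0.086, 2959 genes (5663 as deposited) and 9 members (17) were called in males, and 5 members (10) by sex in WT. The cause was not tested. The same rescaling turned the genotype values of *Irf1* (-0.22), *Stat2* (-0.12), *Dhx58* (-0.049), *Eif2ak2* (-0.016), *Mx2* (-0.013), *Rsad2* (-0.22), *Bst2* (-0.42), *Rtp4* (-0.25), *Ifi27* (-0.21), *Ifi35* (-0.27), *Isg15* (-0.40), *Parp9* (-0.27), *Dtx3l* (-0.15), *Gbp2* (-0.19) and *Tap1* (-0.32). Without the 20 most abundant genes *Bst2* (-0.035) and *Isg15* (-0.034) turned, and 6 members (10) were called in females. Without a filter 6 members were called in females and 4 by sex in WT. With the early-numbered animals as a covariate, 409 genes (705) and 2 members were called by sex in WT. Without those animals, chosen after seeing the data, the counts were 465 genes and 3 members, females gave 4 members, and *Irf9* (0.0030), *Bst2* (-0.016), *Isg15* (-0.0034) and *Irgm2* (0.083) turned. Leaving out each animal gave 291 to 1698 genes and 1 to 16 members by sex in WT, 6 to 10 genes by sex in KO (10), 75 to 176 genes for the interaction (112) and 5 to 12 members in females. It moved *Irf9* from -0.086 to 0.057, *Rsad2* from -0.13 to 0.35, *Bst2* from -0.11 to 0.16, *Rtp4* from -0.00064 to 0.35, *Isg15* from -0.20 to 0.17 and *Irgm2* from -0.13 to 0.098. The depth behind single values is unknown.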

Other observations

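Among the 12 other antiviral effectors, *Rsad2* and *Cmpk2*, neighbours on chromosome 12, were the members with the most negative interactions. Their male minus female genotype effects were -0.99 (adjusted p = 0.696) and -0.38 (adjusted p = 0.811), while 36 of the 44 members and 71.7% of all tested genes had positive values. After rescaling 33 of the 44 members and 48.0% of all tested genes had positive values. In WT livers *Rsad2* and *Cmpk2* stood higher in males on average. *Rsad2* had 5.79, 7.07 and 2.18 TPM in WT males and 2.87, 2.33 and 3.35 TPM in WT females, and *Cmpk2* had 3.93, 3.03 and 1.41 TPM against 1.97, 2.21 and 2.86 TPM. With *Dtx3l* they were the 3 members with a positive male minus female difference in WT. WT male replicate 3 was the lowest WT male for both genes.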
